A study of Penicillium oxalicum with 6 samples.

Results

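Transcripts of 3 genes for starch-degrading enzymes were followed in the filamentous fungus Penicillium oxalicum while it was kept on cellulose. The genes were taken by their IDs, all 3 of which were listed among the 9727 genes of every library. They are POX01356, named as the glucoamylase Amy15A, and POX09352 and POX02412, both named as alpha-amylases. These product names came with the choice of the IDs. The deposited files pair no ID with a product, so the names were not checked here. Neither the files nor the reference table used here gives product names, so other genes of starch breakdown were not listed, and the 3 genes are not a complete account of the pathway.

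Starch is a polymer of glucose that fungi break down outside the cell. An alpha-amylase cuts bonds in the interior of the chains and releases shorter pieces, and a glucoamylase takes single glucose units off the chain ends, so both enzymes together turn starch into glucose. In Aspergillus species such genes are known to be induced by starch or maltose through the transcription factor AmyR and to be repressed by glucose.

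The parental strain, Δku70 (delta ku70), lacks ku70, which encodes a subunit of the complex that joins broken DNA ends. The mutant, ΔPOX01387 (delta POX01387), was derived from it and also lacks POX01387, a gene whose product the labels do not name. For both strains the labels give 5 days on PDA (potato dextrose agar). Spores of either strain gave rise to mycelium over 24 h in medium with 1% glucose at 28 °C. Some 1 g of this mycelium then spent 24 h in fresh medium whose carbon source was 2% Avicel, cellulose in microcrystalline form. The labels name no starch in this medium. Each strain was represented by 3 libraries. Separate cultures behind the libraries are not stated in the labels, nor is the number of transformants behind the mutant, so p-values cover only the spread among these libraries, part of which may be technical. Whether fewer hyphae made a transcript or each made less of it cannot be told apart in RNA of whole mycelium, and the mycelium label could not be checked against marker genes because the IDs carry no names.

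Levels are given as FPKM, fragment numbers scaled by the authors for transcript length and for the mapped fragments of the library, so that levels can be compared between genes. The number of reads behind each value is unknown. The libraries listed between 180 and 259 genes at 0, and their median gene stood between 24.78 and 29.47 FPKM. POX01387 itself stood at 9.4, 6.89 and 6.14 FPKM in the parental libraries. Of the mutant libraries replicate 1 listed it at 0.02 FPKM and the other 2 at 0, which matched the strain labels in 6 of 6 libraries. Δku70 replicate 1 stood apart from the other parental libraries on the second principal component of the log2 values, which held 12.2% of the variance. It was also the lowest parental library for each of the 3 genes. The changes, the ratios and the summed share are therefore given with and without it. Leaving out the lowest parental library enlarges a decrease, so values without replicate 2, the highest for each of the 3, are given as well.

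On cellulose all 3 genes were transcribed in the parental strain, with the glucoamylase gene well above the alpha-amylase genes. Without POX01387 the alpha-amylase gene POX09352 fell 4.41-fold in mean FPKM and the glucoamylase gene POX01356 fell 2.35-fold, and both passed the test. The alpha-amylase gene POX02412 had a mean 1.46-fold lower in the mutant, which did not pass. Passing was common, as 47.9% of tested genes were called and 32.6% were called lower in the mutant. POX09352 kept its call in all 16 processing alternatives, while POX01356 kept it in 13 and lost it on leaving out certain single libraries. The FPKM order of the alpha-amylase genes differed between the strains. POX09352 stood above POX02412 in 3 of 3 parental libraries and below it in 3 of 3 mutant libraries. In the mutant the gap was small, with POX09352 at 0.887 to 0.925 of the level of POX02412.

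**Figure D1:**
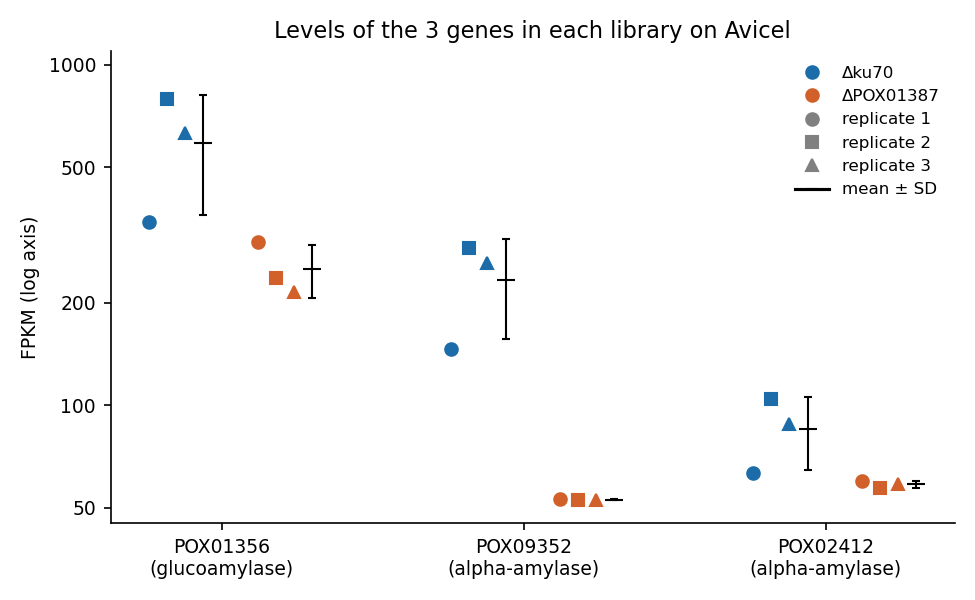
FPKM of the 3 genes (log axis) in each library, with 1 symbol per replicate number, blue for Δku70 and orange for ΔPOX01387, and black bars for the mean ± SD of 3 libraries. The parental libraries lie above the mutant libraries for each gene, widely for POX09352 and narrowly for POX02412, where 63.25 FPKM stands against 59.82 FPKM. Such a separation was found for 40.0% of tested genes.

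The glucoamylase gene POX01356 was the most abundant of the 3 in every library. It stood at 345.63, 793.31 and 631.08 FPKM in Δku70 replicates 1, 2 and 3. In ΔPOX01387 it stood at 301.14, 236.83 and 214.59 FPKM in replicates 1, 2 and 3. The parental libraries thus lay above the mutant libraries without overlap, as they did for 40.0% of tested genes. The lowest parental value exceeded the highest mutant value by only 1.15-fold. Among all 9727 genes of a library it ranked between 204 and 501 from the top in Δku70 and between 571 and 733 in ΔPOX01387, and in every library at least 92.5% of genes stood below it.

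POX01356 averaged 590.0 ± 227 FPKM in the parent and 250.9 ± 44.9 FPKM in the mutant (SD, n = 3 each). This was a log2 fold change of -1.16 ± 0.31 on the log2(FPKM + 1) scale (SE; limma, adjusted p = 0.021). The call depended on single libraries. The change was -1.07 without Δku70 replicate 3 (limma, adjusted p = 0.071), -1.13 without ΔPOX01387 replicate 2 (limma, adjusted p = 0.063) and -1.06 without ΔPOX01387 replicate 3 (limma, adjusted p = 0.061), none of which passed. Without Δku70 replicate 1, the low parental library, the decrease was larger at -1.51 ± 0.18 (SE; limma, adjusted p = 0.0026). Without Δku70 replicate 2, the highest parental library, it was smaller at -0.91 ± 0.29 (SE; limma, adjusted p = 0.047).

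The alpha-amylase gene POX09352 showed the largest decrease of the 3. It stood at 146.36, 290.17 and 260.87 FPKM in Δku70 replicates 1, 2 and 3. In ΔPOX01387 it stood at 53.08, 52.69 and 52.48 FPKM. The mutant libraries differed from each other by 1.01-fold, while the lowest parental library was still 2.76-fold above the highest mutant library. Its rank in a library moved from between 585 and 1202 in Δku70 to between 2856 and 2919 in ΔPOX01387.

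POX09352 averaged 232.5 ± 76.0 FPKM in the parent and 52.8 ± 0.304 FPKM in the mutant (SD, n = 3 each). On the log2 scale it fell by 2.06 ± 0.25 (SE; limma, adjusted p = 0.0014). It passed the threshold under all 16 processing alternatives run, with values from -2.36 to -1.87 and adjusted p from 6.5e-05 to 0.009 in limma. The value of -2.36 was the one without Δku70 replicate 1, and that of -1.87 the one without Δku70 replicate 2.

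The alpha-amylase gene POX02412 was the weakest of the 3 in the parental strain. It stood at 63.25, 104.43 and 87.83 FPKM in Δku70 replicates 1, 2 and 3. In ΔPOX01387 it stood at 59.82, 56.99 and 58.57 FPKM. The parental libraries lay above the mutant libraries without overlap, as they did for 40.0% of tested genes. Yet Δku70 replicate 1 was only 1.06-fold above the highest mutant library. Its rank lay between 1589 and 2705 in Δku70 and between 2586 and 2747 in ΔPOX01387, ranges that overlap.

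POX02412 averaged 85.2 ± 20.7 FPKM in the parent and 58.5 ± 1.42 FPKM in the mutant (SD, n = 3 each). The difference on the log2 scale was -0.51 ± 0.18 (SE; limma, adjusted p = 0.052), with a 95% confidence interval from -0.93 to -0.09 before any adjustment. It lay just outside the threshold of 0.05, and its side of it depended on the libraries and the scaling used. Without Δku70 replicate 1 the change was -0.70 ± 0.10 (SE; limma, adjusted p = 0.0045). Without Δku70 replicate 2 it was -0.35 ± 0.15 (SE; limma, adjusted p = 0.11). With each library rescaled to an equal sum it was -0.54 (limma, adjusted p = 0.043), and with median-of-ratios scaling -0.34 (limma, adjusted p = 0.18).

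These differences were set against those of all genes. Of 8925 tested genes 47.9% were called at an adjusted p under 0.05 (limma), 32.6% lower in ΔPOX01387 and 15.3% higher, so that a call in itself was common. Of the 3 genes 2 were called lower and 0 higher. Decreases of at least 2-fold that passed the test were found for 6.80% of tested genes, and for 2 of the 3. POX01356 lay near this limit. Its log2 fold change was -0.997 under median-of-ratios scaling and -0.91 without Δku70 replicate 2, both short of 2-fold. A decrease as large as that of POX09352 or larger was found for 1.25% of tested genes, against 4.92% for POX01356 and 23.4% for POX02412. Parental libraries all above mutant libraries were found for 40.0% of tested genes, and for 3 of the 3. The separation of the strains without overlap was therefore frequent in these data, and the size of the decrease set POX09352 and POX01356 further out than POX02412.

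**Figure D2:**
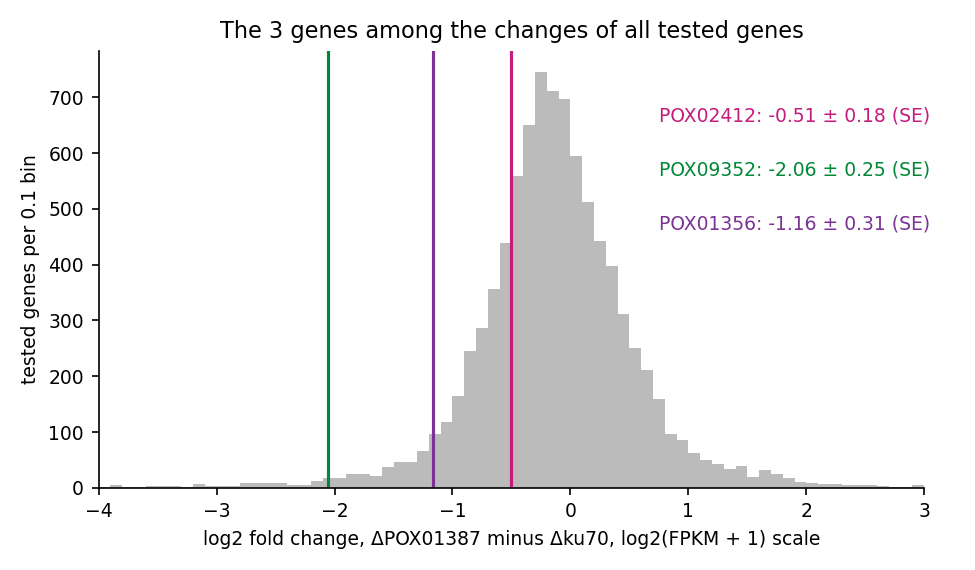
Number of tested genes (vertical axis) per 0.1 bin of the log2 fold change of ΔPOX01387 minus Δku70 on the log2(FPKM + 1) scale (horizontal axis), with vertical lines at the 3 genes. POX09352 at -2.06 and POX01356 at -1.16 lie in the lower tail and POX02412 at -0.51 lies within the bulk; 17 tested genes fall outside the plotted range.

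The median log2 fold change was -1.16 for the 3 genes and -0.145 for all tested genes. The latter depended on the scale of the values, and median-of-ratios scaling put it at 0.01. Under that scaling POX09352 changed by -1.89 ± 0.26 (SE; limma, adjusted p = 0.0025) and POX01356 by -0.997 ± 0.321 (SE; limma, adjusted p = 0.043). With this scaling 22.1% of genes were called lower.

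Whether the 3 genes changed by different amounts was examined with ratios between them inside each library, from which a factor common to a library drops out. The glucoamylase gene POX01356 exceeded the alpha-amylase gene POX09352 by 2.36-fold, 2.73-fold and 2.42-fold in Δku70 replicates 1, 2 and 3. In ΔPOX01387 it exceeded it by 5.67-fold, 4.49-fold and 4.09-fold. The ratio was thus higher in every mutant library than in every parental library. The mean log2 ratio was 1.32 ± 0.11 in the parent and 2.21 ± 0.24 in the mutant (SD, n = 3 each), a difference of 0.90.

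The ratio between the alpha-amylase genes differed most between the strains. POX09352 stood 2.31-fold, 2.78-fold and 2.97-fold above POX02412 in Δku70 replicates 1, 2 and 3. In ΔPOX01387 it stood at 0.887, 0.925 and 0.896 of the level of POX02412. The order of the genes by FPKM was therefore POX01356, POX09352, POX02412 in each parental library and POX01356, POX02412, POX09352 in each mutant library. In the mutant these alpha-amylase genes lay close together, at 52.48 to 53.08 FPKM and 56.99 to 59.82 FPKM, ranges that did not overlap. An error in scaling between genes would recur in every library, so this small gap does not settle which was higher in the mutant. The mean log2 ratio fell by 1.55, from 1.41 ± 0.19 to -0.15 ± 0.03 (SD, n = 3 each).

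POX01356 exceeded POX02412 by 5.46-fold, 7.6-fold and 7.19-fold in Δku70 replicates 1, 2 and 3. In ΔPOX01387 the ratio was 5.03, 4.16 and 3.66. The parental ratio of replicate 1 lay close to the mutant ratio of replicate 1, and the groups did not overlap. The difference of the mean log2 ratio was -0.66, from 2.73 ± 0.26 in the parent to 2.07 ± 0.23 in the mutant (SD, n = 3 each). Each of the 3 ratios gave p = 0.1 in a two-sided exact permutation test over libraries, the smallest p that 3 against 3 libraries allow, and 0.1 after Benjamini-Hochberg adjustment over the 3 ratios. This test could therefore not pass a threshold of 0.05, and no other test of the ratios was run. How often ratios between other genes separate the strains was not examined, so the lack of overlap is description only. Without Δku70 replicate 1 the differences of the log2 ratio were 0.85 for POX01356 to POX09352, -1.66 for POX09352 to POX02412 and -0.80 for POX01356 to POX02412. Without Δku70 replicate 2 they were 0.96, -1.52 and -0.56 in the same order of pairs.

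**Figure D3:**
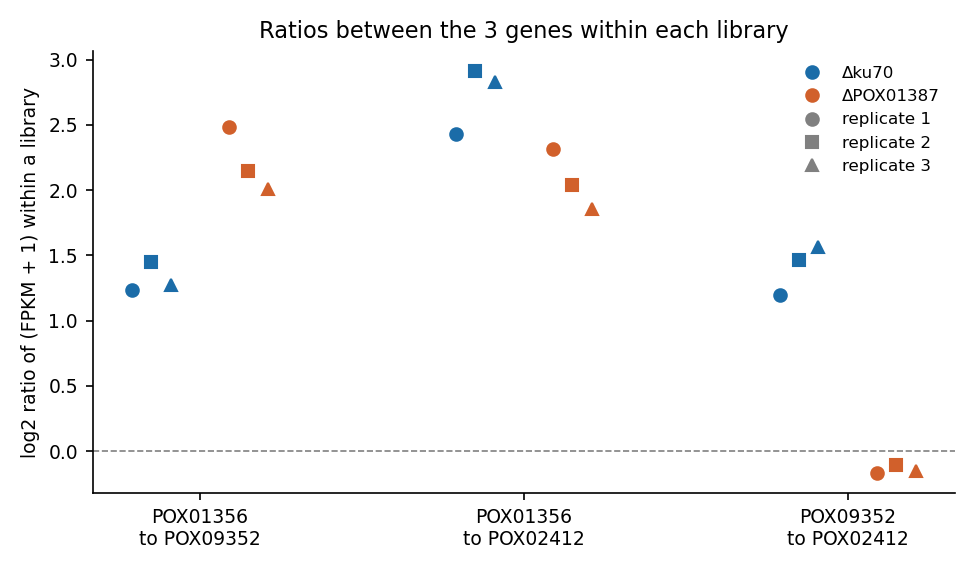
Log2 ratio of (FPKM + 1) between each pair of the 3 genes (vertical axis) in each library, blue for Δku70 and orange for ΔPOX01387, with 1 symbol per replicate number and a dashed line at equal levels. The ratio of POX09352 to POX02412 lies above the line in the parental libraries and just below it in the mutant libraries.

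Together the 3 genes made up a small part of the transcriptome. Their summed level was 555.2, 1187.9 and 979.8 FPKM in Δku70 replicates 1, 2 and 3. In ΔPOX01387 it was 414.0, 346.5 and 325.6 FPKM. As a share of all FPKM the parental libraries held 0.0898% ± 0.0321 and the mutant libraries 0.0348% ± 0.00419 (SD, n = 3 each). The difference was -0.0549 percentage points, -0.0726 without Δku70 replicate 1 and -0.0412 without Δku70 replicate 2. The sum was not tested. Within it POX01356 held 64.5% ± 2.27 in Δku70 and 69.0% ± 3.46 in ΔPOX01387, while POX09352 held 25.8% ± 1.2 and 14.7% ± 1.7, and POX02412 held 9.72% ± 1.45 and 16.3% ± 1.77 (SD, n = 3 each).

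The spread between libraries was wide in the parental strain and narrow in the mutant for the alpha-amylase genes. The SD of the log2 values of POX09352 was 0.529 in Δku70 and 0.008 in ΔPOX01387, larger than that of 93.5% of tested genes in the first case and of 0.493% in the second. For POX02412 it was 0.363 and 0.034, larger than for 86.2% and 6.8% of tested genes. POX01356 varied in both strains, with 0.618 in Δku70 and 0.25 in ΔPOX01387, larger than for 95.1% and 80.0% of tested genes. The median gene had 0.146 in Δku70 and 0.133 in ΔPOX01387. The difference in spread between the strains was not tested.

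The parental spread had the same order in all 3 genes, with replicate 2 highest, replicate 3 next and replicate 1 lowest. This order was shared by 16.0% of tested genes. Relative to the mean of replicates 2 and 3 on the log2 scale, replicate 1 was 2.04-fold lower for POX01356, 1.87-fold lower for POX09352 and 1.51-fold lower for POX02412. As low a value in replicate 1 was seen in 2.12%, 2.48% and 4.93% of tested genes, respectively, and the median gene was not lower there, with a log2 difference of 0.044. What sets this library apart was not tested.

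The genes whose profile over the 6 libraries was nearest to each of the 3 were sought by the root-mean-square difference of log2(FPKM + 1) after centring each gene on its own mean. Nearest to POX01356 were POX04109 and POX07573, at 0.130 and 0.174 and with log2 fold changes of -1.08 and -1.04. Nearest to POX09352 were POX09786 and POX02689, at 0.161 and 0.167 and with log2 fold changes of -1.83 and -1.79. Nearest to POX02412 were POX08895 and POX06512, at 0.049 and 0.055 and with log2 fold changes of -0.54 and -0.49. POX08895 averaged only 1.83 FPKM in Δku70 and 0.887 FPKM in ΔPOX01387, and POX02689 6.97 and 1.25 FPKM. At such levels the log2(FPKM + 1) scale understates the change, so these genes fell by more in FPKM than the values given. The starch genes were not each other's nearest profiles. Among 8924 other genes POX02412 was number 186 from POX01356, and POX09352 was number 800. Seen from POX09352, POX01356 was number 148 and POX02412 number 1355. Seen from POX02412, POX01356 was number 4718 and POX09352 number 8214, so most tested genes were nearer to POX02412 by this measure than POX09352. The measure includes the size of the strain change, so genes with unequal changes lie far apart by it. The Pearson correlation of the profiles was 0.945 for POX01356 with POX09352, 0.974 for POX01356 with POX02412 and 0.915 for POX09352 with POX02412. These positions and correlations rest on 6 libraries that all share the strain difference and describe likeness only.

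**Figure D4:**
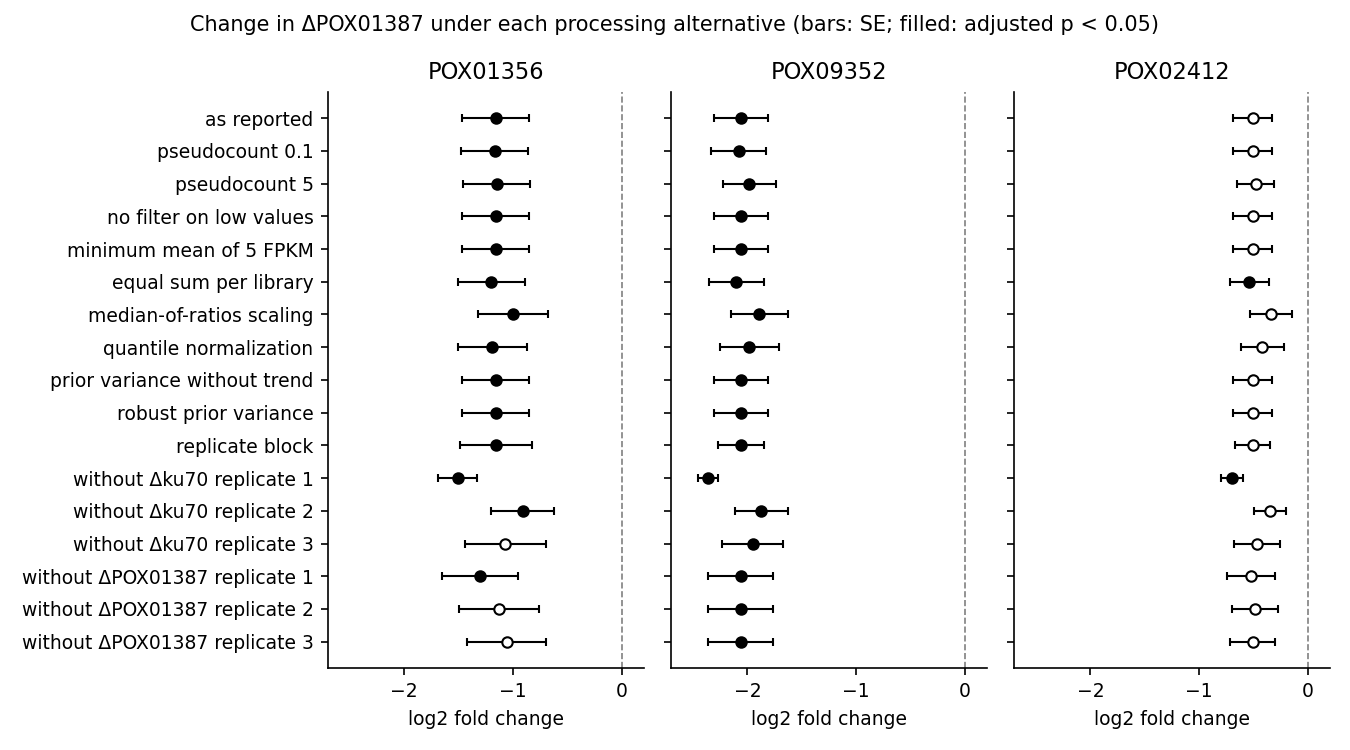
Log2 fold change of ΔPOX01387 minus Δku70 (horizontal axes) of each gene as reported and under 16 processing alternatives (vertical axis), with bars for the SE and filled points where the adjusted p was under 0.05. POX09352 is filled throughout, POX01356 is open without Δku70 replicate 3, ΔPOX01387 replicate 2 or ΔPOX01387 replicate 3, and POX02412 is filled with equal sums and without Δku70 replicate 1.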

How the data were processed

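Per the labels' protocols, mRNA from mycelium was broken into fragments, copied into cDNA from random primers and read on a BGISEQ platform. RSEM 1.2.12, Bowtie2 2.1.0, BWA 0.7.10-r789 and DESeq2 appear in the submitters' processing notes, without their roles. The build, the annotation and any filters: not given in the sources used here. Per the file headers, each deposited table holds the FPKM values of 1 library. No counts were used, so depth is unknown and no counting interval is given. Among genes at 0 in at least 1 library, low values lay within 10% of those of Δku70 replicate 1 for 22.0% to 30.3% of genes. The median ratio among these was 0.991 to 1.029, but the 10% window fixed it near 1, so it cannot show a difference in depth. Reads shared between near-identical genes could not be recognised.

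Groups and replicate numbers came from the sample titles. Genes averaging 1 FPKM or more over the libraries (8925 of 9727, the 3 genes included) were compared as log2(FPKM + 1) with limma 3.58.1 in R 4.3.3 (intensity trend, two-sided, Benjamini-Hochberg over all tested genes, threshold 0.05). The procedure was also run on simulated data with 200 changed genes and independent noise, while 47.9% of genes were called in these data. That simulation cannot vouch for calls that depend on single libraries. Fold changes on that scale understate changes of low genes. Ratios were tested with SciPy 1.17.1. No libraries were identical. The 3 genes, the lists and the tests were chosen with earlier results of these data known. Other genes named are POX01387, the 2 nearest profiles of each gene and the IDs numbered directly above and below it. Alternatives were other pseudocounts, filters, scalings and prior variances, a replicate block and leaving out each library. None of 9727 IDs matched the RefSeq table for assembly ASM172317v3 exactly, and 9528 shared their number with one of its locus tags. That equal numbers mean equal genes was not established here, so no gene was placed in the genome. The table gives no product names, so other genes of starch breakdown were not listed.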

Additional observations from a re-analysis of the deposited data

How the results depend on the processing

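Of 16 alternatives, POX01356 kept its call in 13, POX09352 in 16, and POX02412 stayed outside the threshold in 14. The changes of POX01356, POX09352 and POX02412 with 1 library left out ranged from -1.51 to -0.91, from -2.36 to -1.87 and from -0.70 to -0.35 on the log2 scale. POX01356 missed the threshold without Δku70 replicate 3, ΔPOX01387 replicate 2 or ΔPOX01387 replicate 3, fits with fewer libraries. POX02412 passed it without Δku70 replicate 1, its lowest parental library, and, at -0.54, with each library rescaled to an equal sum; the cause was not tested. The number of genes called in all was 4272 and ranged from 2960 to 4585. The differences of the 3 log2 ratios kept their direction in all 9 alternatives run for each, and the share of the 3 genes stayed lower in ΔPOX01387 in all 8. Median-of-ratios scaling, among these 8, divides a library by a single factor and so could not change the share.

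The replicate numbers could not be shown to pair the libraries. After subtraction of the mean of each strain, like-numbered libraries had correlations of 0.088, 0.27 and 0.54 for replicates 1, 2 and 3. Δku70 replicate 1 had nearly the same correlation with ΔPOX01387 replicate 2, at 0.097. For the others the like-numbered library was the best match. Δku70 replicate 2 had -0.01 and -0.23 with ΔPOX01387 replicates 1 and 3, and Δku70 replicate 3 had -0.12 and -0.52 with ΔPOX01387 replicates 1 and 2. With the replicate block the changes were -1.16 for POX01356 (limma, adjusted p = 0.039), -2.06 for POX09352 (limma, adjusted p = 0.0036) and -0.51 for POX02412 (limma, adjusted p = 0.056), no call of the 3 changed, and 4585 genes were called. Without counts, the depth behind the narrow spread of POX09352 in ΔPOX01387 is unknown.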

Other observations

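The genes numbered next to the 3 starch genes were looked at with the ID numbers taken as an order only, since positions in the genome were not used. Of the 10 IDs nearest to POX09352, 8 were tested, and 6 of these were called lower and 0 higher in ΔPOX01387 (limma, adjusted p under 0.05), with a median log2 fold change of -0.89. Of all tested genes 32.6% were called lower and 15.3% higher, with a median log2 fold change of -0.145. POX09353, numbered directly above it, stood at 499.67, 142.82 and 215.67 FPKM in Δku70 replicates 1, 2 and 3 and at 93.56, 61.59 and 40.18 FPKM in ΔPOX01387. It thereby changed by -2.0 ± 0.5 on the log2 scale (SE; limma, adjusted p = 0.017), close to that of POX09352. Their parental profiles ran in opposite order, as replicate 1 was the highest library for POX09353 and the lowest for POX09352. POX09351, numbered directly below, fell by 0.46 ± 0.12 on the log2 scale (SE; limma, adjusted p = 0.018).

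Around POX02412, 6 of 9 tested IDs were called lower and 2 higher, with a median of -0.49. POX02411 fell by 0.49 ± 0.12 on the log2 scale (SE; limma, adjusted p = 0.017), and POX02413 had -0.24 ± 0.27 (SE; limma, adjusted p = 0.49). Around POX01356, 1 of 6 tested IDs was called lower and 0 higher, with a median of -0.16. POX01357 had -0.19 ± 0.08 (SE; limma, adjusted p = 0.083), and POX01355 stood at no more than 0.41 FPKM and was not tested. POX01356 is numbered below the deleted gene POX01387, with 30 IDs between them. Of these, 22 were tested, 7 were called lower and 2 higher, with a median of -0.19. Among all tested genes 32.6% were called lower and 15.3% higher, with a median of -0.145. The 7 of 22 called lower thus lay close to the share for all tested genes.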
